A study of Arabidopsis thaliana with 12 samples.

Results

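GUT2 and AT5G40020 were followed through 4 groups of Arabidopsis thaliana hypocotyls, the seedling stems between root and seed leaves. They were found by symbol or locus among the probe sets that the array's annotation assigns to exactly 1 gene. Each gene has 1 such probe set, so 2 of 13513 probe sets with 1 gene, and of 22746 non-control probe sets in all, are described. They were chosen by their measured levels in these same 12 arrays, with the group differences already known, so their levels and differences are given as a description, without a test.

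The plants were of the ecotype Col-0 and had grown in full-strength MS medium. Hypocotyls were taken at 7 days (young) or 35 days (mature), either without auxin or after 1 day of auxin, and each of the 4 groups has 3 arrays that the labels call biological replicates. Neither the kind nor the dose of auxin is given, nor whether untreated plants were a day younger at harvest. Whole hypocotyls were extracted, so the RNA mixes xylem with phloem, cambium, cortex and epidermis. The question of the study, by its title, is how the ability of hypocotyls to form callus changes as they age. No mutant, transgene or cell sorting is mentioned.

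Xylem vessels and fibres lay down a thick secondary wall after they stop growing, made of cellulose, the hemicellulose xylan and lignin. The backbone of xylan is a chain of xylose that is built in the Golgi by glycosyltransferases of the IRX9, IRX10 and IRX14 groups, and mutants that lack them have collapsed, irregular xylem vessels, from which the IRX names come. GUT2, also named IRX10, encodes a xylosyltransferase of this machinery, and GUT1 is its close relative, known as IRX10-LIKE. AT5G40020 carries no name or described function in the annotation used here, so no role is given to it. The family listed for it below comes from general knowledge.

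Values are RMA values read as log2 and centred by the authors on each probe set's median over the 12 arrays, so that 0 is the middle of the 12 arrays for that gene. Levels can therefore be compared between arrays for 1 gene, but not between genes, and strong cannot be told from weak expression. In tissue RNA, fewer cells of a type and less RNA per cell cannot be told apart either. The listed secondary wall cellulose synthases (0 of 6) and xylem cell death genes (0 of 7) had no probe set with 1 gene. The label xylem secondary wall could therefore not be checked against them. The annotation used here gives 1 gene to 13513 of 22746 non-control probe sets, several to 503 and no gene name to the rest. A listed gene with no probe set of its own by this annotation may still be on the array. Genes are called measured below if they have a probe set with 1 gene.

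Arrays of one group were alike, with Pearson correlations across probe sets of 0.910 to 0.964 within groups and of −0.79 to 0.56 between them. The bioC spike-in control was low on arrays 1 and 2 of both untreated groups, reaching −1.61, and lay between −0.20 and 0.20 on the 6 arrays with auxin. The 25S ribosomal RNA control was lower on every untreated array (−2.56 to −1.06) than on any array with auxin (1.06 to 2.50). The 3′ minus the 5′ signal of GAPDH was 0.33 to 0.51 in young untreated hypocotyls and 0.13 to 0.21 in mature untreated ones. With auxin it was −0.18 to 0.03. These probe sets are centred too, so the values compare arrays and do not give the size of a 3′ excess. Values without the 4 arrays of low bioC signal are given where they differ. That fit leaves 1 array in each untreated group, whose spread is taken from the groups with auxin. A call lost in it cannot be assigned to the low signal rather than to the smaller number of arrays.

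GUT2 was lowest in mature hypocotyls after auxin. In young untreated hypocotyls its 3 arrays stood at 0.24, 0.41 and 0.30, and in young hypocotyls with auxin at −0.00052, 0.18 and 0.15. The untreated mature arrays stood at −0.19, −0.31 and 0.00052. The mature arrays with auxin stood at −1.16, −0.78 and −1.02, below each of the other 9. The group means were 0.32 ± 0.09 (SD, n = 3) in young untreated, 0.11 ± 0.10 in young with auxin, −0.17 ± 0.16 in mature untreated and −0.99 ± 0.19 in mature with auxin.

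In that order of the GUT2 means, only the last step was wide. The young untreated arrays lay above the young arrays with auxin, but the nearest arrays of the 2 groups were 0.06 apart, less than either group's SD. The young arrays with auxin and the mature untreated ones met at the middle of the series, where 1 array of each, at −0.00052 and 0.00052, crossed. From the mature untreated to the mature arrays with auxin there was a gap of 0.47.

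The mean of GUT2 was lower with auxin at both ages, by different amounts. The difference with auxin was −0.21 ± 0.11 (SE of the limma fit, 3 arrays against 3) in young hypocotyls and −0.82 ± 0.11 in mature ones, or 1.15-fold and 1.77-fold lower. Arrays of the compared groups did not overlap in either case, which is no particular feature, since 64.5% of all probe sets had no overlap in young and 64.5% in mature hypocotyls. Without the 4 arrays of low bioC signal the mature difference was −0.99.

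The age difference of GUT2 was present without auxin and wider with it. Mature hypocotyls were lower by −0.48 ± 0.11 (log2) without auxin, 1.40-fold, and by −1.10 ± 0.11 with auxin, 2.14-fold. No overlap was seen in either comparison, as for 53.4% and 40.7% of all probe sets. Without the 4 arrays of low bioC signal the difference without auxin was −0.30, while the comparison with auxin uses none of these arrays. Of 22746 probe sets 741 (3.26%) had a more negative age difference with auxin than GUT2, and 3342 (14.7%) had one without auxin. The auxin response of GUT2 was −0.61 ± 0.15 lower at 35 than at 7 days.

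**Figure D1:**
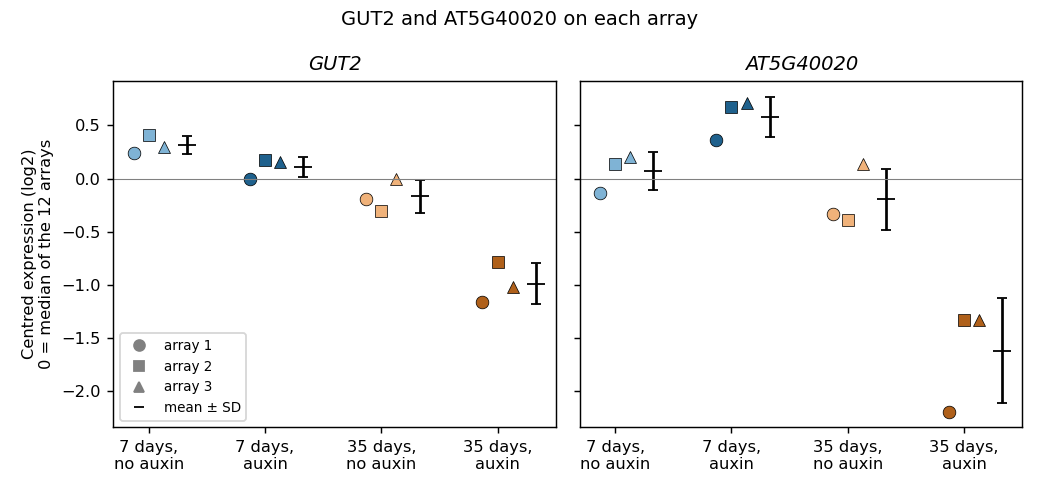
Centred expression (log2, 0 is the median of the 12 arrays) of GUT2 and AT5G40020 on each array, by age and auxin, with the mean ± SD of the 3 arrays at the right of each group. The mature arrays with auxin lie lowest for both genes, between −1.16 and −0.78 for GUT2 and between −2.19 and −1.33 for AT5G40020, and AT5G40020 is highest in young hypocotyls with auxin.

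AT5G40020 had its highest and its lowest values in the 2 groups with auxin. Its young arrays with auxin stood at 0.36, 0.67 and 0.71, above each of the other 9. The young untreated arrays stood at −0.13, 0.14 and 0.21, and the mature untreated arrays at −0.33, −0.39 and 0.13. The mature arrays with auxin stood at −2.19, −1.33 and −1.33, again below all others, with array 1 lower than the other two. The means were 0.07 ± 0.18 (SD, n = 3) in young untreated, 0.58 ± 0.19 in young with auxin, −0.20 ± 0.29 in mature untreated and −1.62 ± 0.50 in mature with auxin.

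With auxin AT5G40020 was thus higher in young and lower in mature hypocotyls. The difference was 0.51 ± 0.21 (SE, log2) at 7 days, 1.42-fold higher, and −1.42 ± 0.21 at 35 days, 2.68-fold lower. Arrays of the compared groups did not overlap, as for 64.5% of all probe sets at either age. The nearest arrays of AT5G40020 were 0.15 apart in young hypocotyls, within the SD of either group, and 0.94 apart in mature ones. The response at 35 days was −1.93 ± 0.30 lower than at 7 days, and 396 of 22746 probe sets (1.74%) had a more negative value of this quantity. Without the 4 arrays of low bioC signal the 2 responses were 0.37 and −1.75.

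By age, AT5G40020 differed little before auxin and most after it. Untreated, mature hypocotyls were −0.27 ± 0.21 (log2) from young ones with overlapping arrays. Leaving out the 4 arrays of low bioC brought this to −0.07. With auxin they were −2.20 ± 0.21 from them, 4.59-fold lower, with a gap of 1.69 between the nearest arrays. Groups did not overlap for 40.7% of all probe sets in that comparison. Only 234 of 22746 probe sets (1.03%) had a more negative age difference with auxin. Leaving out single arrays gave differences between −2.34 and −1.91, the latter without the lowest array.

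**Figure D2:**
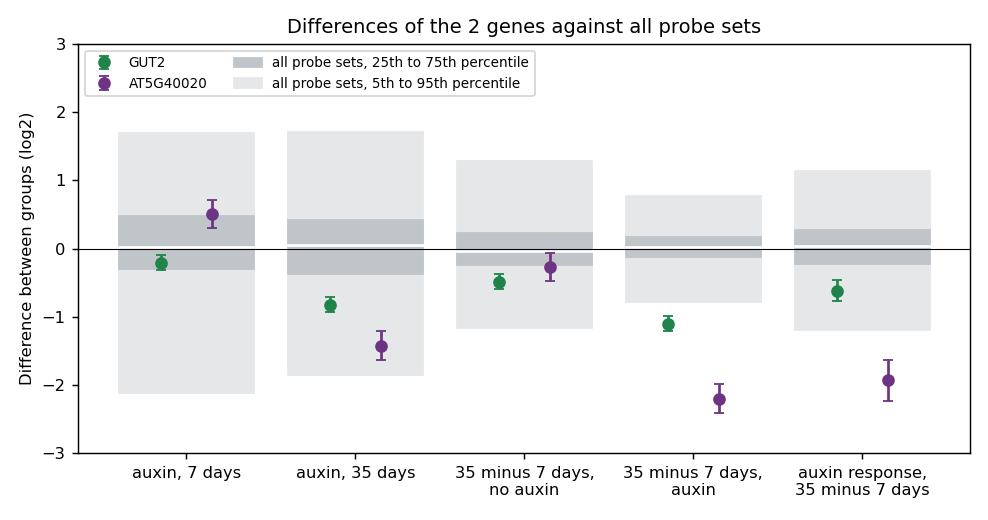
Differences between groups (log2) of GUT2 and AT5G40020 with the SE of the fit, over the spread of all 22746 probe sets (dark band, 25th to 75th percentile; light band, 5th to 95th; white line, median). Both genes lie below the 5th percentile (−0.79) of the age difference with auxin, and inside the 5th to 95th percentile in the other comparisons, except AT5G40020 in the last one.

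The genes shared the low mature level with auxin but not the young response. AT5G40020 minus GUT2, as a difference of centred values, was −0.25 in young untreated and 0.47 in young hypocotyls with auxin. It was −0.03 in mature untreated and −0.63 in mature hypocotyls with auxin. Across the 12 arrays Pearson's r was 0.921 and Spearman's rho 0.741, as a description of arrays that fall into 4 groups. Without the 3 mature arrays with auxin r was 0.518 and rho 0.400 over 9 arrays, so the likeness rests largely on that group. Without the 2 arrays farthest from the median of GUT2, both of that group, r was 0.813.

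Within groups the genes also leaned the same way. Deviations of the 12 arrays from their group means had an r of 0.824. In untreated mature hypocotyls array 3, the one with the higher bioC signal, was the highest for both genes, and in mature hypocotyls with auxin array 1 was the lowest for both. Array 3 of the young untreated group also had the higher bioC signal (0.70). It was the highest for AT5G40020 (0.21), whereas GUT2 was highest on array 2 (0.41, against 0.30 on array 3). Whether array quality had a part in this was not tested.

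**Figure D3:**
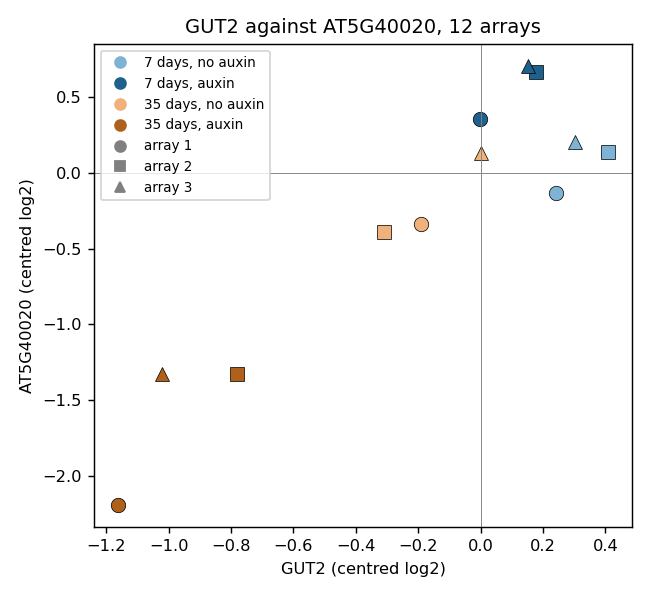
AT5G40020 against GUT2 (both centred log2) on the 12 arrays, with colour for the group and shape for the array number. The 3 mature arrays with auxin lie apart at the lower left, and the young arrays with auxin lie above the young untreated ones in AT5G40020 but left of them in GUT2.

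Other secondary wall genes were sought in 6 lists of 127 loci (cellulose, xylan, lignin, transcription factors, cell death and wall patterning). Only 12 of these had a probe set with 1 gene, besides GUT2. They were 3 xylan genes, 6 lignin genes and 3 transcription factors. No gene of the cellulose (0 of 6), cell death (0 of 7) or wall patterning (0 of 12) lists was measured, so the 12 cannot stand for the whole programme. These 12 did not move as one group. In mature against young hypocotyls with auxin, where both genes above were lowest, 6 of the 12 rose and 4 fell (limma, Benjamini-Hochberg adjusted p under 0.05 over 22746 probe sets), against 27.3% called of all probe sets (14.2% higher and 13.0% lower). Their median was 0.13 (log2), and that of all probe sets was 0.03. Without auxin 7 rose and 3 fell with age, with a median of 0.47, against 45.7% of all probe sets called (22.7% higher and 22.9% lower).

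With auxin 7 of the 12 rose and 3 fell in young hypocotyls, with a median of 0.49, where 59.1% of all probe sets were called (32.7% higher and 26.4% lower). In mature hypocotyls 4 rose and 4 fell, with a median of 0.06, where 59.9% were called (31.8% higher and 28.1% lower). The response differed between ages in 5 of them, lower at 35 days in 4 and higher in 1, against 35.0% of all probe sets (17.5% in each direction). Without the 4 arrays of low bioC signal this last count was 3, and the count with age in untreated hypocotyls fell from 10 to 4 (CCR2, AT5G66390, AT2G41480 and AT5G64120).

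Among xylan genes, GUT1 varied less over the 12 arrays than GUT2, which was chosen by its levels in them. Absolute levels are not known, so a steady gene cannot be told from a weak signal. The 12 arrays of GUT1 ranged from −0.18 to 0.32, and its group means from −0.05 to 0.18. With auxin GUT1 was 0.23 ± 0.09 (log2) higher in young hypocotyls (limma adjusted p = 0.0486), a call that 14 of 18 alternatives ended. Its age difference with auxin was −0.19 ± 0.09 (adjusted p = 0.151), and in mature hypocotyls the difference with auxin was 0.03 ± 0.09.

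IRX15 and its relative IRX15-L, which are tied to the length of xylan chains, rose with auxin in young hypocotyls. IRX15 stood at 0.09, 0.37 and 0.07 in young untreated hypocotyls and at 0.60, 1.21 and 0.99 with auxin, a rise of 0.76 ± 0.15 (limma adjusted p = 4.97e-04). In mature hypocotyls it stood at −0.39, −0.50 and −0.07 untreated and at −0.32, −0.22 and −0.16 with auxin, which overlap (0.09 ± 0.15, adjusted p = 0.632). The 3 mature arrays with auxin lay below the 3 young ones with auxin, at a difference of −1.16 ± 0.15 (adjusted p = 4.17e-05), close in size to that of GUT2. The auxin response of IRX15 was lower at 35 days (−0.67 ± 0.21, adjusted p = 0.0251), a call that ended without any 1 of 6 arrays, with an adjusted p of up to 0.0675.

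IRX15-L rose with auxin at both ages, by 0.90 ± 0.12 (adjusted p = 1.07e-05) in young and 0.64 ± 0.12 (adjusted p = 2.69e-04) in mature hypocotyls. Its mature arrays with auxin, at 0.06, 0.25 and 0.40, lay above the untreated ones, at −0.39, −0.43 and −0.38. It was lower by −0.47 ± 0.12 in mature than in young hypocotyls with auxin (adjusted p = 0.00840). That sign was also the one of GUT2, whereas the auxin difference in mature hypocotyls was negative for GUT2 and positive for IRX15-L.

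Acetyl groups are added to xylan by proteins of the TBL family. A list of 6 such genes was made after the annotation had been seen, and 5 were measured: TBL28, TBL30, TBL32, TBL34 and TBL35. With age after auxin 3 fell and 0 rose, with a median of −0.63, against 13.0% of all probe sets that were lower. TBL30 stood at 0.91, 1.00 and 1.56 in young hypocotyls with auxin and at −0.0044, −0.19 and −0.40 in mature ones (−1.35 ± 0.15, adjusted p = 1.10e-05). It rose with auxin in young hypocotyls (1.12 ± 0.15, adjusted p = 1.52e-05) and was −0.14 ± 0.15 in mature ones, and the responses differed (−1.26 ± 0.21, adjusted p = 4.01e-04). TBL35 had smaller values of the same signs, 0.46 ± 0.12 and −0.03 ± 0.12 with auxin and −0.63 ± 0.12 with age after auxin. The call of TBL35 in young hypocotyls ended without the 4 arrays of low bioC signal (adjusted p = 0.0814). Its difference in response (adjusted p = 0.0401) was lost in 9 of 17 alternatives.

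TBL34 fell in each of the 4 comparisons, as GUT2 did in value. It ran from 0.57 to 1.19 in young untreated hypocotyls and from −0.95 to −0.63 in mature ones with auxin. The falls were −0.62 ± 0.16 and −0.59 ± 0.16 with auxin at 7 and 35 days, and −1.01 ± 0.16 and −0.98 ± 0.16 with age without and with auxin. Without the 4 arrays of low bioC signal the call of TBL34 in young hypocotyls ended (adjusted p = 0.0586), as did that with age in untreated ones (adjusted p = 0.0670). TBL28 fell with auxin in young hypocotyls (−1.17 ± 0.20) and TBL32 rose (1.10 ± 0.16), so the measured members had no common direction. TBL32 was −0.31 ± 0.16 with age after auxin, which did not pass (adjusted p = 0.202) but did with the replicate number as a block (adjusted p = 0.0471) or after quantile normalization (adjusted p = 0.0368).

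**Figure D4:**
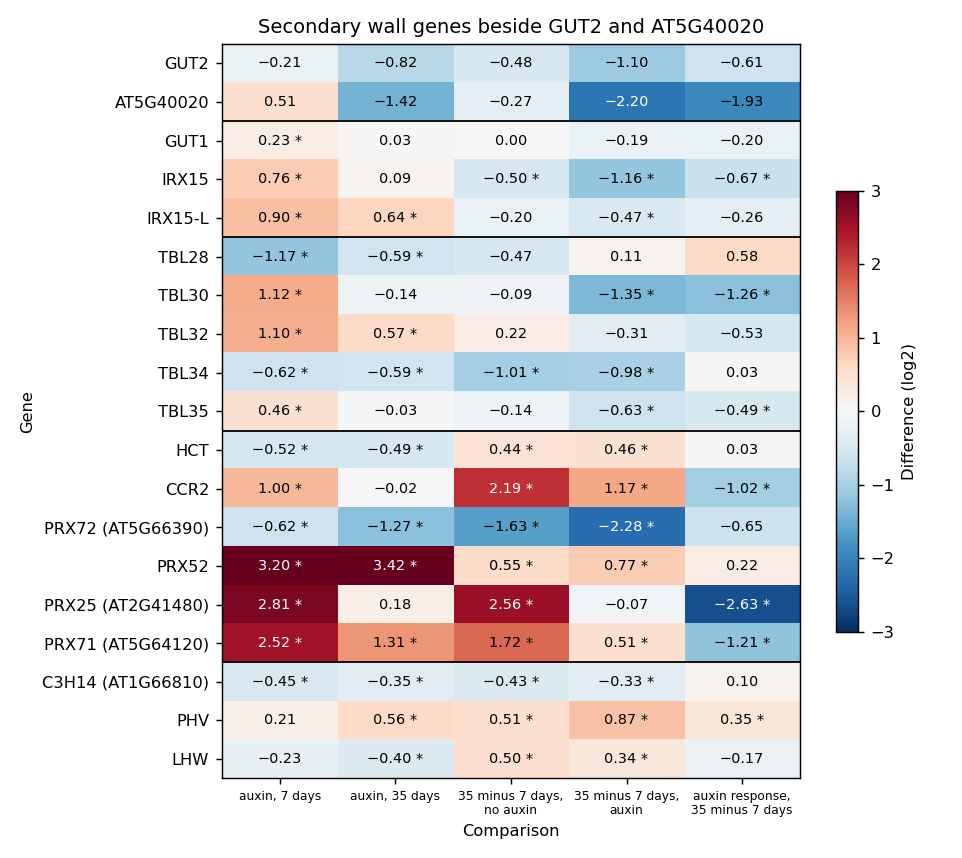
Differences (log2, colour and number) of GUT2, AT5G40020 and 17 measured genes of xylan, xylan acetylation, lignin and xylem transcription factors in 5 comparisons. An asterisk marks an adjusted p under 0.05, which is given for the 17 genes and not for the first 2 rows. In the age comparison with auxin, blue rows (IRX15, TBL30, PRX72) stand beside red ones (CCR2, PRX52, PHV).

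Lignin genes also went both ways. AT5G66390, the class III peroxidase PRX72 that acts in lignin formation, had the highest r with GUT2 of the listed wall genes over the 12 arrays. It stood at 1.12, 0.72 and 1.13 in young untreated hypocotyls and at 0.28, 0.42 and 0.42 in young ones with auxin. It stood at −0.69, −0.95 and −0.28 in mature untreated hypocotyls and at −1.40, −1.74 and −2.58 in mature ones with auxin. These 4 groups do not overlap. In the single comparisons 40.7% to 64.5% of all probe sets had no overlap, and the share with 4 separate groups was not counted. The groups follow the order of the GUT2 means, which goes with the r by which AT5G66390 was picked out. AT5G66390 fell with age after auxin by −2.28 ± 0.24 (limma adjusted p = 7.68e-06), with auxin in mature hypocotyls by −1.27 ± 0.24 (adjusted p = 4.21e-04), and with age in untreated ones by −1.63 ± 0.24 (adjusted p = 7.55e-05). Its fall in young hypocotyls, −0.62 ± 0.24, was called at an adjusted p = 0.0427 that 10 of 18 alternatives ended. Its r with GUT2 over the 12 arrays was 0.927, and 0.925 without the mature arrays with auxin. TBL34 had an r of 0.901 over the 12 arrays, and of 0.955, above that of AT5G66390, without these 3.

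The other peroxidases of the list rose with auxin in young hypocotyls. PRX52, which is also tied to lignin, was 9.22-fold higher at 7 days and 10.7-fold higher at 35 days (3.20 ± 0.12 and 3.42 ± 0.12). AT2G41480, the peroxidase PRX25, was 7.03-fold higher at 7 days (2.81 ± 0.13) and did not pass at 35 days (0.18 ± 0.13, adjusted p = 0.244), a difference in response of −2.63 ± 0.18 (adjusted p = 2.17e-07). AT2G41480 passed at 35 days as well without the 4 arrays of low bioC signal (0.43, adjusted p = 0.0291). In untreated hypocotyls AT2G41480 was already 5.91-fold higher at 35 days (2.56 ± 0.13), and with auxin the ages were −0.07 ± 0.13 apart. AT5G64120, the peroxidase PRX71, rose at both ages, by 2.52 ± 0.17 and 1.31 ± 0.17, and less at 35 days (−1.21 ± 0.24, adjusted p = 0.00148). That difference in response was −0.47 (adjusted p = 0.0909) without the 4 arrays of low bioC signal. Its age difference with auxin, 0.51 ± 0.17 (adjusted p = 0.0394), lost its call in 8 of 18 alternatives, with an adjusted p of up to 0.119. These were the replicate number as a block (adjusted p = 0.0541) and 7 left-out single arrays.

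HCT, which makes a shikimate ester on the way to lignin units, fell with auxin by −0.52 ± 0.09 in young and −0.49 ± 0.09 in mature hypocotyls, the latter call ending without the 4 arrays of low bioC signal (adjusted p = 0.0614). It was higher with age after auxin by 0.46 ± 0.09 (adjusted p = 0.00170), opposite to GUT2. CCR2, a cinnamoyl-CoA reductase, was 4.56-fold higher in mature than in young untreated hypocotyls (2.19 ± 0.14) and 2.25-fold higher with auxin (1.17 ± 0.14). It rose with auxin by 1.00 ± 0.14 at 7 days and was −0.02 ± 0.14 at 35 days, and the responses differed (−1.02 ± 0.19, adjusted p = 9.48e-04).

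Of 45 listed transcription factors of xylem and secondary wall 3 were measured, and none of the VND, NST or MYB46 switches was among them. AT1G66810, the zinc finger protein C3H14 that activates wall genes, fell with auxin by −0.45 ± 0.11 in young and −0.35 ± 0.11 in mature hypocotyls. It was lower with age as well, by −0.43 ± 0.11 without auxin and −0.33 ± 0.11 with it, the latter call (adjusted p = 0.0351) being lost in 5 of 18 alternatives, the replicate block (adjusted p = 0.0513) among them. The former was −0.22 (adjusted p = 0.453) without the 4 arrays of low bioC signal. Its signs were those of GUT2 in the 4 comparisons, at a smaller size with age after auxin. The call of AT1G66810 in mature hypocotyls with auxin also ended without array 3 of either mature group, with an adjusted p of up to 0.0646.

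PHV, a class III homeodomain leucine zipper factor of vascular patterning, went the other way. It stood at −0.43, −0.41 and −0.28 in young untreated and at 0.61, 0.63 and 0.87 in mature hypocotyls with auxin. PHV rose with auxin at 35 days (0.56 ± 0.09, adjusted p = 6.78e-05) and with age after auxin (0.87 ± 0.09, adjusted p = 4.80e-06). LHW, a bHLH factor of vascular cell divisions, was higher with age (0.50 ± 0.10 without and 0.34 ± 0.10 with auxin) and fell with auxin at 35 days (−0.40 ± 0.10). Without the 4 arrays of low bioC signal the calls of LHW ended, at differences of 0.33, 0.34 and −0.34 in that order. The age comparison with auxin uses none of these arrays, so its difference did not change.

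Families of both genes were listed by locus from general knowledge, and the annotation used here names no family for most of these loci. For GUT2 (GT47 exostosin-like family), 20 of 38 such loci were measured, GUT1 among them. With age after auxin 3 rose and 6 fell (45% called), with a median of −0.06. Of all probe sets 27.3% were called (14.2% higher and 13.0% lower). For AT5G40020 (thaumatin-like family), 18 of 22 listed genes were measured, by 19 probe sets. Of the 19 probe sets 6 were higher with age after auxin (31.6%, against 14.2% of all probe sets). None was lower, against 13.0% of all probe sets, and the median was 0.24. OSM34, an osmotin, was the highest of them (5.21 ± 0.23), and ATLP-1 was higher by 1.23 ± 0.20 (adjusted p = 3.93e-04).

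Markers of other tissues were few, with 9 of 51 listed genes measured. At 7 days 3 rose and 6 fell with auxin, and at 35 days 1 rose and 7 fell. Of all probe sets 59.1% and 59.9% were called there. In untreated hypocotyls 4 rose and 5 fell with age, where 45.7% of all probe sets were called. With age after auxin 2 of the 9 rose and 0 fell (22.2%), against 27.3% of all probe sets (14.2% higher and 13.0% lower). The 2 were FACT of suberin (3.83 ± 0.11) and CLE41, a peptide gene of the cambium region (0.87 ± 0.11). The 4 genes of green tissue were not called in this comparison, with values from −0.19 to 0.26. They were lower with auxin at both ages, with medians of −7.34 at 7 and −5.64 at 35 days. The phloem sugar transporter gene SWEET11 was not called with age after auxin either (−0.26 ± 0.19). Its differences with auxin were −5.59 at 7 and −3.60 at 35 days. No gene of the epidermis or endodermis lists was measured. The part of tissue make-up in the levels of GUT2 and AT5G40020 was not tested.

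Genes with the most similar profile to each were taken by Pearson's r over the 12 arrays, among 13512 other probe sets with 1 gene, as a description of arrays that share 4 groups. For GUT2 the highest were AT1G65900 (r = 0.978), AT1G47410 (0.977), AT3G27200 (0.970), AT5G44580 (0.970) and AT2G23120 (0.963), and 64 had an r over 0.9. AT5G40020 was number 34 in this order. Each of the 5 had its lowest group mean in mature hypocotyls with auxin, from −2.93 for AT5G44580 to −0.71 for AT2G23120. Choosing genes by r to GUT2, itself lowest in that group, largely fixes this. AT5G44580 was the one with the widest steps, with means of 1.19, 0.65, −0.66 and −2.93 in young untreated, young with auxin, mature untreated and mature with auxin.

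For AT5G40020 the highest were AT4G08160 (r = 0.955), AT4G09890 (0.935), AT5G60720 (0.934), GUT2 (0.921) and AT1G03520 (0.916), and 8 had an r over 0.9. Of these AT4G08160 had the young response too, with means of 0.03 and 0.60 in young hypocotyls without and with auxin and of 0.01 and −0.73 in mature ones. AT4G09890 had the low mature level with auxin, −2.21, but only 0.05 between its young means. The sets of 5 for GUT2 and for AT5G40020 had no gene in common.

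The lowest r belonged to genes that were highest in mature hypocotyls with auxin, which largely follows from choosing them by r. For GUT2 these were ATMPK13, a MAP kinase gene (r = −0.98), AT3G27150 (−0.97), AT4G29690 (−0.97), AT4G18250 (−0.97) and AT4G01700 (−0.96). ATMPK13 had means of −0.38, −0.18, 0.10 and 1.32 in the order of the GUT2 means. For AT5G40020 they were AT5G54040 (−0.96), AT4G35110 (−0.94), AT3G06035 (−0.92), AT3G22800 (−0.92) and AT4G18250 (−0.92), of which AT4G18250 stood in both sets.

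**Figure D5:**
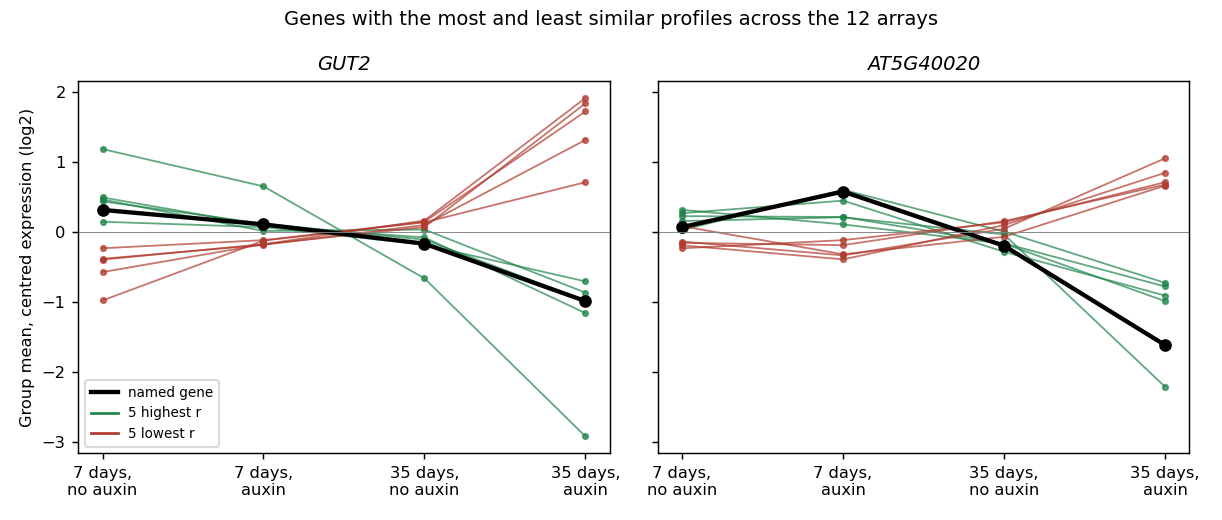
Group means (centred log2) of GUT2 and AT5G40020 (black) with the 5 genes of highest r (green) and of lowest r (red) to each across the 12 arrays, in the 4 groups. The green genes are lowest and the red ones highest in mature hypocotyls with auxin, which largely follows from choosing them by r. Of the green genes of AT5G40020 only some share its rise in young hypocotyls with auxin.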

How the data were processed

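The authors deposited RMA values, a log2 scale by the usual output of RMA, per the submitters' processing notes. Software version and log base are not given in the sources used here. In the deposited table the median of every probe set over the 12 arrays is 0, so absolute levels and a filter on dim probe sets were not possible. Of 22810 probe sets 64 controls were left out. Genes were named by the array's annotation, with loci from RefSeq. One limma fit (version 3.58.1, R 4.3.3) with 4 group means was made on all 12 arrays (8 residual degrees of freedom, two-sided, Benjamini-Hochberg over 22746 probe sets, called at an adjusted p under 0.05), and was tested on simulated data. Arrays limit precision to 3 per group. The 2 genes and the lists were chosen with earlier results of these data known. Named are both genes, measured xylan genes, up to 2 called rises and falls of other lists per comparison, and the 5 most and least alike. Values of further lignin, TBL, transcription factor and marker genes were named after they were seen. Same-numbered arrays of the 2 auxin groups deviated together (r of 0.250, 0.158 and 0.122). Each of the remaining 5 pairs of groups had an r under 0.1 for 1 number or more. Arrays of different numbers were not compared, so these values cannot show which groups the numbers pair. The low bioC signal did follow the numbers, on arrays 1 and 2 of both untreated groups. Alternatives were other normalizations, a replicate block, other spreads, thresholds and left-out arrays.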

Additional observations from a re-analysis of the deposited data

Results flagged for a closer look

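The auxin response differed between 35 and 7 days in 5 of 12 secondary wall genes, 2 of 5 TBL genes and 7 of 9 marker genes, by the limma test of the difference, against 35.0% of all probe sets. It was lower at 35 days for IRX15 (−0.67, log2), CCR2 (−1.02), AT2G41480 (−2.63), AT5G64120 (−1.21), TBL30 (−1.26), TBL35 (−0.49), CLE44 (−2.23) and FACT (−0.79). It was higher at 35 days for PHV (0.35), SWEET11 (1.99), LHCB4.2 (1.60), PSAN (2.18), PRK (1.81) and RCA (1.54), where for the last 5 the response was a smaller fall. The call of PHV ended in 10 of 17 alternatives, that of TBL35 in 9 and that of IRX15 in 6. For AT5G40020 each array with auxin lay above each untreated one at 7 days and below each at 35 days. Groups also did not overlap for 64.5% of all probe sets at either age. The difference in response of AT5G40020 was −1.93 and was not tested.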

How the results depend on the processing

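Many recomputed differences of GUT2 and AT5G40020 could not move. Leaving out arrays changes only comparisons that use their groups, and the replicate block changes none. Of 160 recomputed differences, those included, 156 moved by less than 1 SD of the arrays within groups, 4 moved by more and 0 changed sign. The 4 arose without the 4 arrays of low bioC signal, which leaves 1 array in each untreated group, assumed to vary like the other groups: GUT2 with auxin in mature hypocotyls −0.99, with age without auxin −0.30, in the response by age −0.80, and AT5G40020 with auxin in mature hypocotyls −1.75. Left-out single arrays gave −0.25 to −0.15, −0.92 to −0.74, −0.57 to −0.41, −1.20 to −1.01 and −0.72 to −0.53 for GUT2 with auxin at 7 and 35 days, age without and with auxin, and the response by age. For AT5G40020 they gave 0.41 to 0.62, −1.57 to −1.13, −0.43 to −0.17, −2.34 to −1.91 and −2.07 to −1.64. With the replicate number as a block, which cannot move these differences (GUT2 −1.10 and AT5G40020 −2.20 with age after auxin), 9, 8, 10, 8 and 5 of the 12 secondary wall genes were called in these comparisons, against 10, 8, 10, 10 and 5. Besides the calls named above, the block ended those of GUT1 and AT5G66390 with auxin at 7 days (adjusted p = 0.0522 and 0.0545) and of TBL35 in the response by age (0.0580). It gained those of PHV with auxin at 7 days (0.0289), TBL28 with age without auxin (0.0264) and TBL32 in the response by age (0.0161). Left-out arrays gave 8 to 12, 7 to 8, 9 to 10, 7 to 10 and 3 to 5 calls. The count for the response by age was 3 without array 3 of either untreated group, without array 2 of the young group with auxin, without the 4 arrays, and at an adjusted p under 0.01. The count for age without auxin was 4 without the 4 arrays. Of 1513 recomputed results of single genes, 1410 kept their side of the threshold, 87 lost and 16 gained a call, and 0 reversed with a call. The causes were not tested. Pearson's r between GUT2 and AT5G40020, 0.921, was 0.741 as Spearman's rho. By rho, 2 of the 5 genes most like GUT2 and 1 of the 5 most like AT5G40020 stayed among the first 5.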
